A study of Mus musculus with 8 samples.

Results

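The genes that write, copy and erase DNA methylation were followed in mouse embryonic stem cells (strain 129X1 x 129S1). The 9 genes considered were Dnmt1, Dnmt3a, Dnmt3b, Dnmt3l, Uhrf1, Tet1, Tet2, Tet3 and Tdg. Their members on the array were the probe sets whose only gene symbol in the platform annotation is 1 of these names, which gave 20 of 45101 probe sets, for 8 of the 9 genes. Tdg had none of its own, since its 3 probe sets are also annotated to Tdg pseudogenes, and its level is not given. The single Tet3 probe set lay below the filter on low signals, so 19 probe sets of 7 genes were tested.

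RNA was measured on 8 Affymetrix arrays, 2 in each of 4 groups. In the shTop1 coculture, cells carrying a short hairpin against the topoisomerase gene Top1 shared a dish with mock cells at 1:4 for 4 days. In the shTop1 mix, each kind of cell had its own dish over those 4 days, and RNA of both was combined at 1:4. The shp53 coculture and the shp53 mix were made likewise with cells carrying a hairpin against p53. Mock cells thus made the larger part of the RNA in the mixes and of the cells plated in the cocultures. Arrays of a group are labelled biological replicates, but separate cultures are not named, so the p-values cover only the spread among these arrays. The share of knockdown cells in the dish after 4 days is not given in the data used here, and fewer cells of a kind cannot be told from less RNA per cell.

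DNA methylation at CpG sites is laid down by the de novo methyltransferases Dnmt3a and Dnmt3b, which work with the catalytically inactive cofactor Dnmt3l. It is copied after replication by Dnmt1, which Uhrf1 brings to hemimethylated DNA, and it is removed by dilution or by Tet enzymes, which oxidise 5-methylcytosine to bases that Tdg can excise. Mouse embryonic stem cells express both arms of this system at once. In the mouse, the passage from naive pluripotency to the primed epiblast is accompanied by a rise of Dnmt3a and Dnmt3b and by a wave of de novo methylation.

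Unless said otherwise, values are signals after quantile normalization, in intensity units, and fold changes are differences of log2(signal + 16), coculture minus mix. Before that step the array mean of the deposited signals ranged from 812 to 896, with each array scaled to the same trimmed mean. The 8 pluripotency markers were all above the filter, with a summed signal of 107400 to 115200 in the cocultures and 110600 to 113700 in the mixes. The array of shTop1 coculture replicate 1 stood apart from the rest on the second principal component (32.6, against -15.5 to 3.63 for the others).

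Averaged over both knockdowns, no gene of the methylation system passed limma's test between coculture and mix. This was also true of the array as a whole, where 0 of 14267 genes (0%) had a Benjamini-Hochberg adjusted p under 0.05. At an unadjusted p under 0.05 stood 2 of the 7 tested members, Tet1 and Dnmt3a, against 11.7% of all genes. When the variances were trended and robust, limma called 31 genes (0.217%), again without a member. The median log2 difference of the 7 members was -0.10, with 5 of 7 below 0, while the median of all 14267 genes was 0.022, with 55.3% above 0. The values of Dnmt3a, Dnmt3b and Tet1 in the 4 cocultures all lay below those in the 4 mixes. Separation in that direction was seen in 3.35% of all genes, and none of the 7 members was separated in the other direction, which was seen in 5.75% of all genes. Leaving out shTop1 coculture replicate 1, the same 3 members had all cocultures below all mixes (6.74% of all genes). With the authors' scaling alone, 2 of 7 members were separated (Dnmt3a and Dnmt3b, 3.48% of all genes) and 0 of 7 in the other direction. With median centring 0 of 7 were separated downward (1.66%) and 0 of 7 upward (6.91%).

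**Figure D1:**
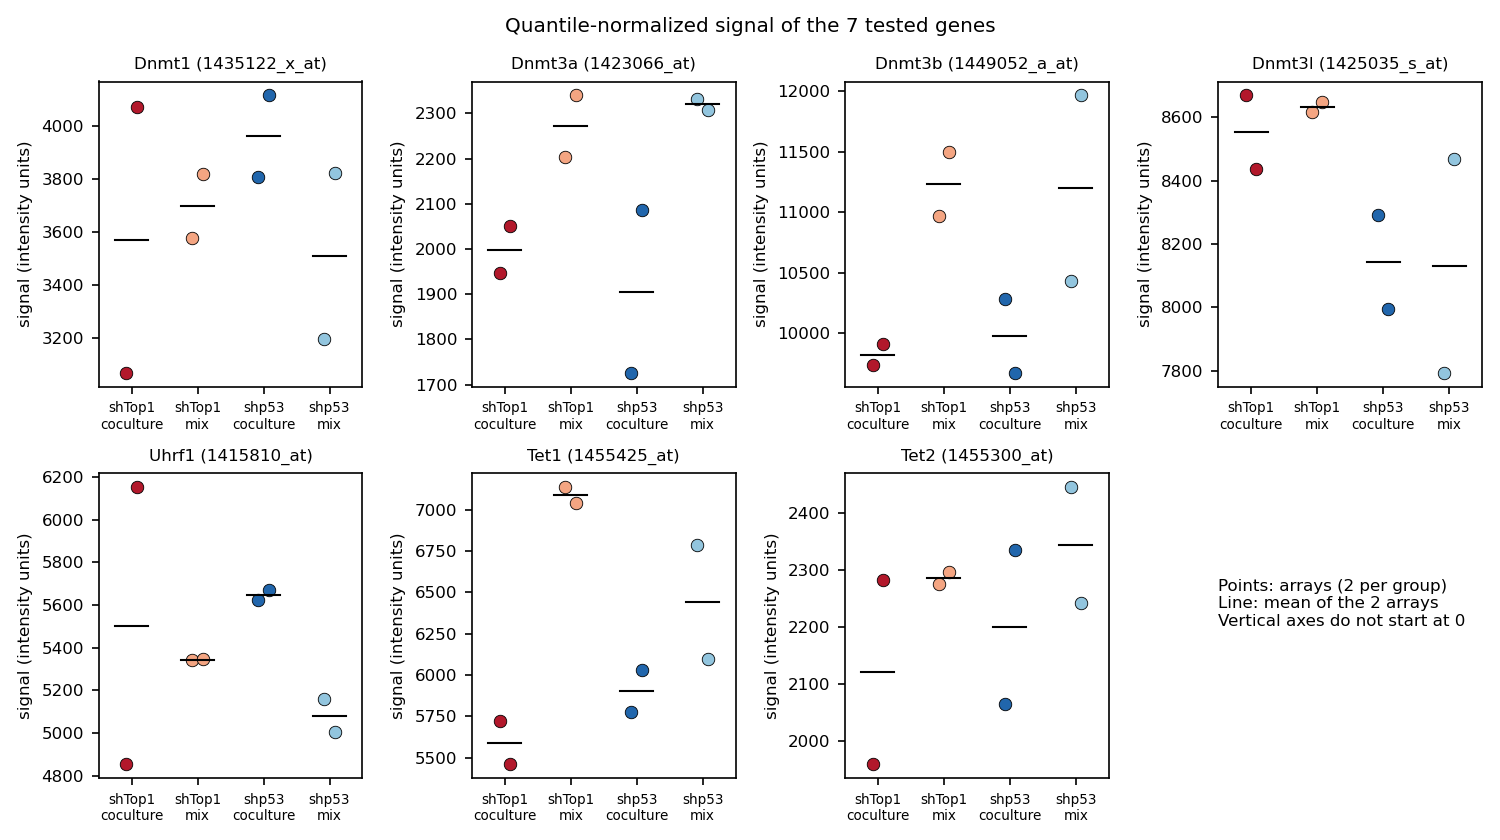
Quantile-normalized signal (vertical axes, intensity units, not starting at 0) of the brightest probe set of each of the 7 tested genes on the 8 arrays, by group; points are arrays and lines the means of 2. The coculture points of Dnmt3a, Dnmt3b and Tet1 all lie below the mix points, and those of the other 4 genes overlap them.

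Dnmt3b, the methyltransferase most tied to the epiblast, had on its brighter probe set (1449052_a_at) signals of 9741 and 9911 in the shTop1 cocultures, against 10966 and 11494 in the shTop1 mixes. It had 10281 and 9674 in the shp53 cocultures, against 10429 and 11964 in the shp53 mixes. The lowest mix, shp53 mix replicate 1, stood only a little above the highest coculture. The mean was 9902 ± 272 in the cocultures and 11213 ± 663 in the mixes (SD, n = 4 each), a log2 difference of -0.18 ± 0.08 (SE, 95% interval -0.37 to 0.011, limma adjusted p = 0.446), which median centring made -0.097. The other Dnmt3b probe set, 1418351_a_at, had a log2 difference of -0.16 ± 0.14 (SE), and its ranges overlapped, at 5070 to 7186 in the cocultures and 6211 to 7528 in the mixes. The distance between arrays of the same group exceeded the distance between the condition means in 3 of the 4 groups.

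The sequence before the Dnmt3b start is given to show its CpG sites, in capitals, whose methylation these arrays do not measure. It covers the 250 bases upstream of the annotated start in RefSeq's GRCm38.p6 table, at chr2:153649199-153649448 on the plus strand, and holds 21 CpG. Over all 32851 such windows the median was 6, with quartiles of 2 and 16. The 16 windows of the 9 genes, some of which have several annotated starts, held 2 to 51.
Dnmt3b: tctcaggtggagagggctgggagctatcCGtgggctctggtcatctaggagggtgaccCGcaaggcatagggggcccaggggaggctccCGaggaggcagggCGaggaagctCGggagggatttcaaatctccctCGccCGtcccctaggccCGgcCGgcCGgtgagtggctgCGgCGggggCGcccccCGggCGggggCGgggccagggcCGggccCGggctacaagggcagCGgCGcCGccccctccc

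Dnmt3a, the other de novo enzyme, had 5 probe sets. On the brightest, 1423066_at, the signals were 1946 and 2052 in the shTop1 cocultures, against 2203 and 2340 in the shTop1 mixes. They were 1726 and 2086 in the shp53 cocultures, against 2333 and 2308 in the shp53 mixes. All 4 cocultures lay below all 4 mixes, and the shp53 cocultures were further from each other than any pair of mixes. The mean was 1953 ± 162 in the cocultures and 2296 ± 63.3 in the mixes (SD, n = 4 each), a log2 difference of -0.24 ± 0.09 (SE, 95% interval -0.44 to -0.026, limma adjusted p = 0.392). Averaged over the 5 probe sets it was -0.098. Of the 4 dimmer probe sets, 1423063_at was also separated, with 585 to 652 in the cocultures and 661 to 733 in the mixes. The other 3 overlapped, with log2 differences of -0.11 (1423064_at), -0.015 (1460324_at) and 0.040 (1423065_at). Their targets within the gene are not annotated in the tables used here, so Dnmt3a isoforms were not told apart.

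Dnmt3l, the cofactor that has no catalytic activity of its own, differed least of the 7 tested genes. Its signals were 8669 and 8437 in the shTop1 cocultures, against 8615 and 8648 in the shTop1 mixes. In the shp53 samples they were 8292 and 7995 in the cocultures, against 7793 and 8468 in the mixes. The groups overlapped in both knockdowns. The log2 difference was -0.0051 ± 0.07 (SE), and its 95% interval of -0.17 to 0.16 holds changes of up to about that size in either direction.

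On the brightest probe set of each of the 3 Dnmt3 genes, then, both catalytic members had log2 differences below 0 and the cofactor had one near 0. The dimmer Dnmt3a probe sets ranged from -0.17 (1423063_at) to 0.040 (1423065_at), and the dimmer Dnmt3b probe set had -0.16. With median centring Dnmt3a had -0.17, Dnmt3b -0.097 and Dnmt3l 0.078. Whether the 3 genes differ from each other was not tested. None passed the test over all genes.

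Of the maintenance pair, Dnmt1 had on its brightest probe set (1435122_x_at) signals of 3069 and 4070 in the shTop1 cocultures, against 3577 and 3819 in the shTop1 mixes. In the shp53 samples it had 3805 and 4114 in the cocultures, against 3196 and 3823 in the mixes. The shTop1 coculture arrays were the lowest and the second highest of all 8, and they enclosed the shTop1 mixes. The log2 difference was 0.057 ± 0.12 (SE, 95% interval -0.23 to 0.35, limma adjusted p = 0.876). It was 0.16 without shTop1 coculture replicate 1 and -0.045 without shTop1 coculture replicate 2, and averaged over the 3 probe sets it was 0.013. The other Dnmt1 probe sets had differences of 0.034 (1422946_a_at) and -0.052 (1447877_x_at), with overlapping ranges.

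Uhrf1, the factor that recognises hemimethylated CpG, had on its brighter probe set (1415810_at) signals of 4852 and 6155 in the shTop1 cocultures, against 5340 and 5349 in the shTop1 mixes. It had 5626 and 5671 in the shp53 cocultures, against 5161 and 5002 in the shp53 mixes. The lowest value of all 8 was that of shTop1 coculture replicate 1, and the other 3 cocultures lay above all 4 mixes, a separation seen in 10.4% of all genes when that array is left out. The log2 difference was 0.092 ± 0.09 (SE, 95% interval -0.14 to 0.32, limma adjusted p = 0.717). In the shp53 samples both cocultures lay above both mixes under all 3 scalings tried, an order whose share among all genes was not counted. Without shTop1 coculture replicate 1 the mean difference was 0.18, and without shTop1 coculture replicate 2 it was 0.0067. The dimmer probe set, 1415811_at, had a difference of 0.033.

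Dnmt1 and Uhrf1 are both known to peak in S phase, when newly made DNA is methylated. Their promoters share the letters of an E2F site, TTTCGCGC or its reverse complement GCGCGAAA, and E2F factors drive genes of the G1/S transition. This was searched on both strands in the 250 bases before each start. A match stood in 0.256% of all 32851 windows and in 2 of the 16 windows of the 9 genes, while the related TTTGGCGC (0.417% of all windows) was found in none of the 16. The matches are printed here as 30 bases of the gene's strand with the E2F letters in capitals. That of Dnmt1 lies at chr9:20952824-20952853 on the minus strand (GRCm38.p6, RefSeq), with its letters 219 to 212 bases before the third annotated start. That of Uhrf1 lies at chr17:56304117-56304146 on the plus strand, 185 to 178 bases before the second annotated start. A match of letters is a description and does not show that a factor binds.
Dnmt1: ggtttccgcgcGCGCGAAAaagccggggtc
Uhrf1: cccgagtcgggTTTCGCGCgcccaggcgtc

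Of the 20 listed genes of the G1/S transition and DNA replication, 19 were tested and none passed, with a median log2 difference of 0.0075, 10 above 0 and 9 below. Those with the smallest p were the replication helicase subunit Cdc45 (0.29 ± 0.08, SE) and the thymidylate synthase gene Tyms (-0.50 ± 0.16, SE), which lay on opposite sides of 0. Cdc45 had 807 and 885 in the shTop1 cocultures, against 728 and 682 in the shTop1 mixes, and 789 and 872 in the shp53 cocultures, against 672 and 650 in the shp53 mixes.

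Tet1, an abundant Tet enzyme of mouse embryonic stem cells, had 4 probe sets, and they did not go the same way. On the brightest, 1455425_at, the signals were 5721 and 5459 in the shTop1 cocultures, against 7139 and 7041 in the shTop1 mixes. They were 5776 and 6033 in the shp53 cocultures, against 6786 and 6095 in the shp53 mixes. All 4 cocultures lay below all 4 mixes, although shp53 mix replicate 2 was close to the cocultures. With the authors' scaling alone the ranges overlapped, since that mix had a deposited signal of 6010 and shp53 coculture replicate 2 had 6084. The mean was 5747 ± 235 in the cocultures and 6765 ± 471 in the mixes (SD, n = 4 each). The log2 difference was -0.23 ± 0.07 (SE, 95% interval -0.41 to -0.058, limma adjusted p = 0.358), a ratio of 0.851, and median centring made it -0.15.

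On a second Tet1 probe set, 1429448_s_at, the order was the opposite. The signals were 4167 and 5146 in the shTop1 cocultures, against 3823 and 3594 in the shTop1 mixes, and 4638 and 4054 in the shp53 cocultures, against 3849 and 3871 in the shp53 mixes. All 4 cocultures lay above all 4 mixes, also with the authors' scaling alone and with median centring, and the log2 difference was 0.24 ± 0.10 (SE, 95% interval -0.012 to 0.50, limma adjusted p = 0.503 over 31571 probe sets). Of the 19 tested probe sets of the 7 genes, 4 had all cocultures below all mixes, against 3.43% of all probe sets, and 1 had all cocultures above all mixes, against 4.20%. The count below fell to 3 of 19 with the authors' scaling alone and to 1 of 19, Dnmt3a 1423063_at, with median centring. The shares of all probe sets separated in either direction under these other scalings were not counted. By the test 0 of 19 were called, as were 0 of 31571 probe sets (0%), and 2 of 19 had an unadjusted p under 0.05, against 10.2% of all probe sets.

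**Figure D2:**
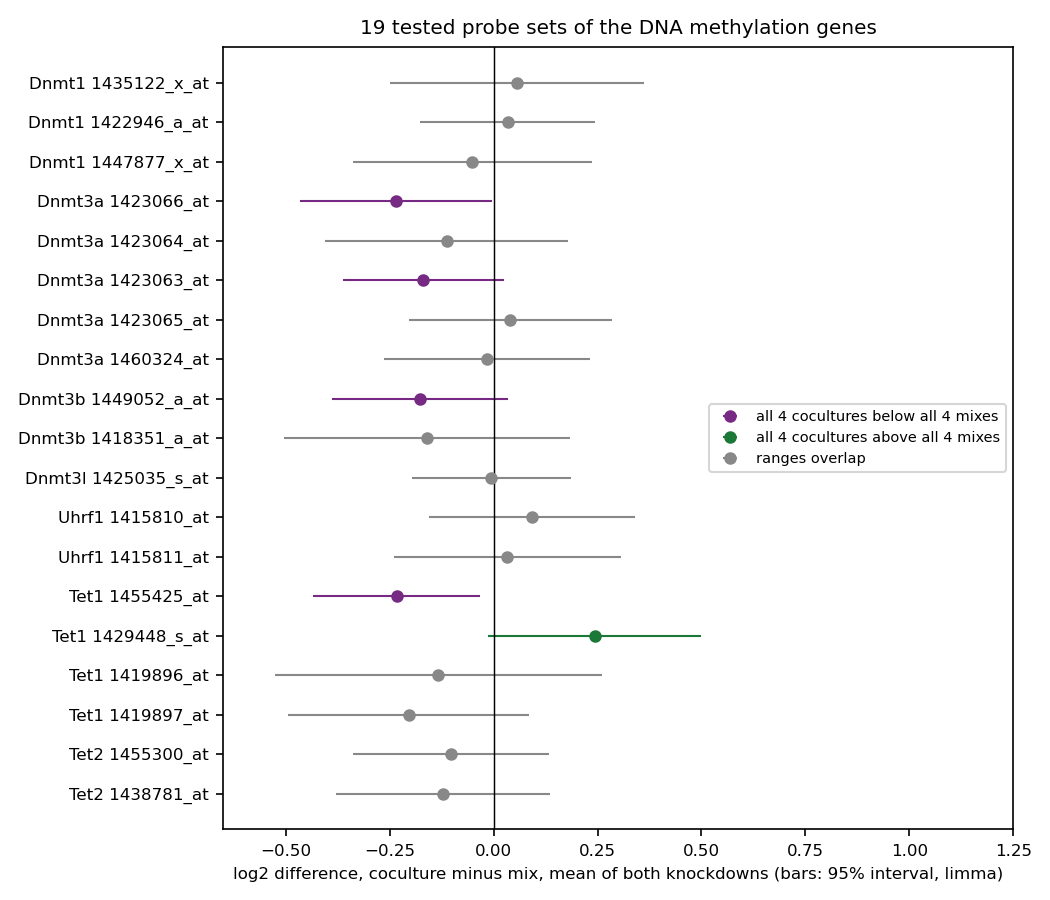
Log2 difference between coculture and mix, averaged over both knockdowns (horizontal axis), for the 19 tested probe sets, with 95% intervals from limma, coloured by whether the 4 cocultures lay below (purple) or above (green) the 4 mixes or overlapped them (grey). The intervals of 17 of 19 include 0, and the Tet1 probe sets 1455425_at and 1429448_s_at lie on opposite sides of 0.

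The log2 ratio of these Tet1 probe sets within an array, 1455425_at over 1429448_s_at, was 0.46 and 0.085 in the shTop1 cocultures, against 0.90 and 0.97 in the shTop1 mixes. It was 0.32 and 0.57 in the shp53 cocultures, against 0.82 and 0.65 in the shp53 mixes. Every coculture lay below every mix. This order follows by arithmetic, since every coculture was below every mix on 1455425_at and above every mix on 1429448_s_at. The ratio therefore adds no separate evidence to those orders. The pair was chosen after its values were seen, so no test is given. The remaining probe sets, 1419896_at and the dim 1419897_at, had log2 differences of -0.13 ± 0.16 and -0.20 ± 0.12 (SE), with overlapping ranges. Averaged over its 4 probe sets Tet1 had a difference of -0.082. The log2 ratio of the 3' to the 5' Actb probe sets, which tracks RNA integrity, was 0.49 to 0.68 in the cocultures and 0.46 to 0.67 in the mixes. Where in the Tet1 transcript each probe set lies is not given in the tables used here, and its part in the disagreement was not tested.

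**Figure D3:**
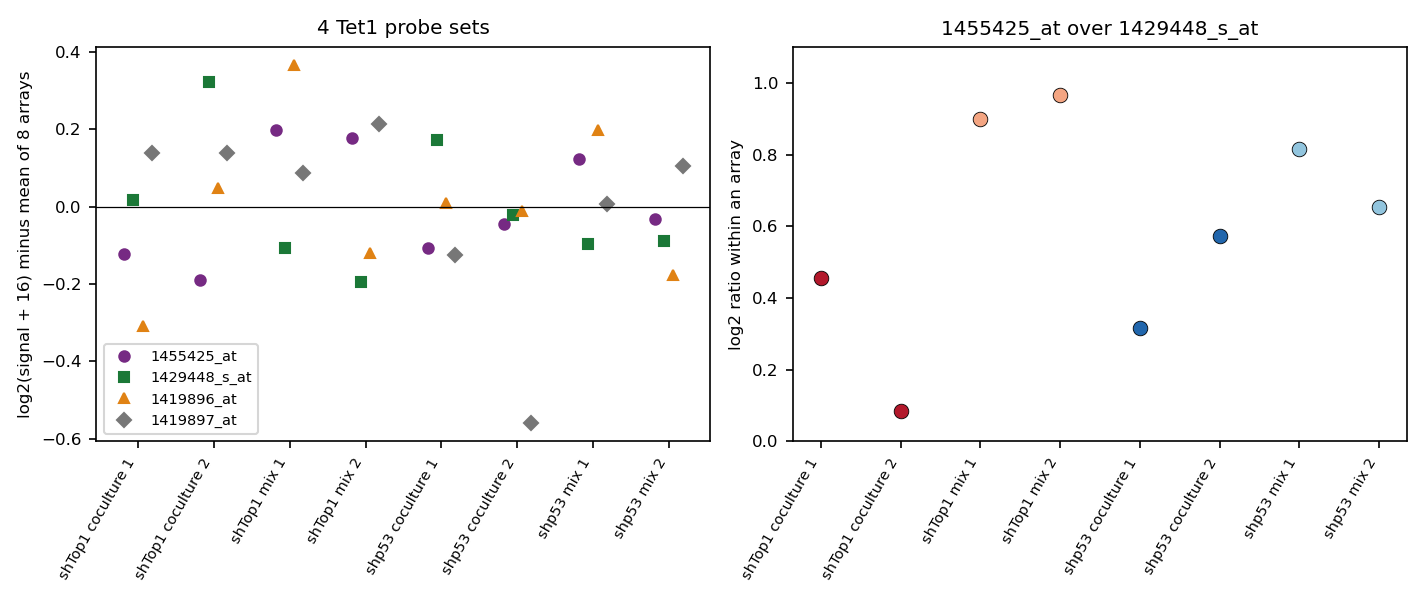
Left, log2(signal + 16) of the 4 Tet1 probe sets on each array, minus the mean of that probe set over the 8 arrays; right, the log2 ratio of 1455425_at to 1429448_s_at within each array. The ratio runs from 0.085 to 0.57 in the cocultures and from 0.65 to 0.97 in the mixes. This separation follows by arithmetic from the opposite orders of 1455425_at and 1429448_s_at.

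The window before the single annotated Tet1 start holds 15 CpG, shown in capitals in the same manner as for Dnmt3b. It lies at chr10:62887325-62887574 on the minus strand (GRCm38.p6, RefSeq), and neither E2F motif was found in it.
Tet1: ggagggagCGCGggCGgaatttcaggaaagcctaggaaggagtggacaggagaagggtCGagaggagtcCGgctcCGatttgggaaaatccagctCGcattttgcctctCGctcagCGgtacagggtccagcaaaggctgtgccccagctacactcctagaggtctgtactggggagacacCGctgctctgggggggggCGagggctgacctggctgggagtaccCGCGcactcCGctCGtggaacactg

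Tet2, which shares the oxidising activity but lacks the DNA-binding CXXC domain of Tet1, had on its brighter probe set (1455300_at) signals of 1958 and 2282 in the shTop1 cocultures, against 2276 and 2297 in the shTop1 mixes. In the shp53 samples it had 2065 and 2335 in the cocultures, against 2446 and 2241 in the mixes. The conditions overlapped. The log2 difference was -0.10 ± 0.09 (SE, 95% interval -0.32 to 0.11, limma adjusted p = 0.670), and that of the dimmer probe set 1438781_at was -0.12. For the brighter probe set it was -0.047 without shTop1 coculture replicate 1, -0.16 without shTop1 coculture replicate 2, -0.058 without shp53 coculture replicate 1 and -0.040 with median centring. On the dimmer probe set the lowest value of all 8 was again that of shTop1 coculture replicate 1, at 589, against 752 to 872 for the other 7.

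Tet3, best known from the oocyte and zygote, had signals of 14.7 and 6.78 in the shTop1 cocultures, against 3.47 and 5.4 in the shTop1 mixes. It had 19 and 4.93 in the shp53 cocultures, against 1.64 and 6.46 in the shp53 mixes. All were below the filter of 22.1, so no difference is given.

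Taken by knockdown, the brightest probe sets of Dnmt3a, Dnmt3b and Tet1 had differences below 0 with shTop1 and with shp53, while the Tet1 probe set 1429448_s_at had 0.32 and 0.17. With shTop1, 6 of 7 members were below 0, with a median of -0.11 (all genes 0.030), and with shp53, 4 of 7, with a median of -0.092 (all genes 0.0145). In neither comparison was a member or any other gene called by limma (0 of 14267 each, 0%), and at an unadjusted p under 0.05 stood 1 of 7 members with shTop1 (8.20% of all genes) and 0 of 7 with shp53 (6.86%). The trended and robust variances gave 3 called genes with shTop1 (0.0210%) and 1 with shp53 (0.00701%), none of them a member. Of the 19 probe sets, 1 with shTop1 (8.10% of all) and 0 with shp53 (6.42%) had an unadjusted p under 0.05.

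Tet1 (1455425_at) had a log2 difference of -0.34 ± 0.10 with shTop1 and -0.12 ± 0.10 with shp53 (SE, limma adjusted p = 0.574 and 0.824). Dnmt3a had -0.18 ± 0.12 with shTop1 and -0.29 ± 0.12 with shp53, and Dnmt3b -0.19 ± 0.11 and -0.16 ± 0.11 (SE). In each knockdown the 2 cocultures of these 3 genes lay below its 2 mixes, an order whose share among all genes was not counted. With median centring this order was lost for Dnmt3b with shp53, and with the authors' scaling alone for Tet1 with shp53. With the probe sets of a gene averaged, Tet1 had -0.0715 with shTop1 and -0.092 with shp53, and Dnmt3a had -0.11 and -0.087. Dnmt1 had -0.064 ± 0.17 with shTop1 and 0.18 ± 0.17 with shp53 (SE), the largest standard error of the 7 genes. Uhrf1 had 0.032 ± 0.13 and 0.15 ± 0.13, and Tet2 had -0.11 ± 0.12 and -0.092 ± 0.12 (SE).

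Single arrays moved several of these values by over 1.5 times. With shTop1, leaving out coculture replicate 1 gave 0.14 for Dnmt1, 0.20 for Uhrf1 and -0.0026 for Tet2, and leaving out coculture replicate 2 gave -0.27, -0.14 and -0.22. Without mix replicate 1 Dnmt1 had -0.11, and without mix replicate 2 it had -0.017. The shTop1 differences of Tet1, Dnmt3a and Dnmt3b stayed within 1.5 times when any 1 array was left out. With shp53, leaving out mix replicate 1 gave -0.046 for Tet1, -0.26 for Dnmt3b, 0.049 for Dnmt1 and -0.029 for Tet2. Leaving out mix replicate 2 gave -0.20, -0.064, 0.31 and -0.155 for these genes. Leaving out shp53 coculture replicate 1 gave -0.15 for Dnmt3a and -0.0041 for Tet2, and leaving out coculture replicate 2 gave -0.18 for Tet2.

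**Figure D4:**
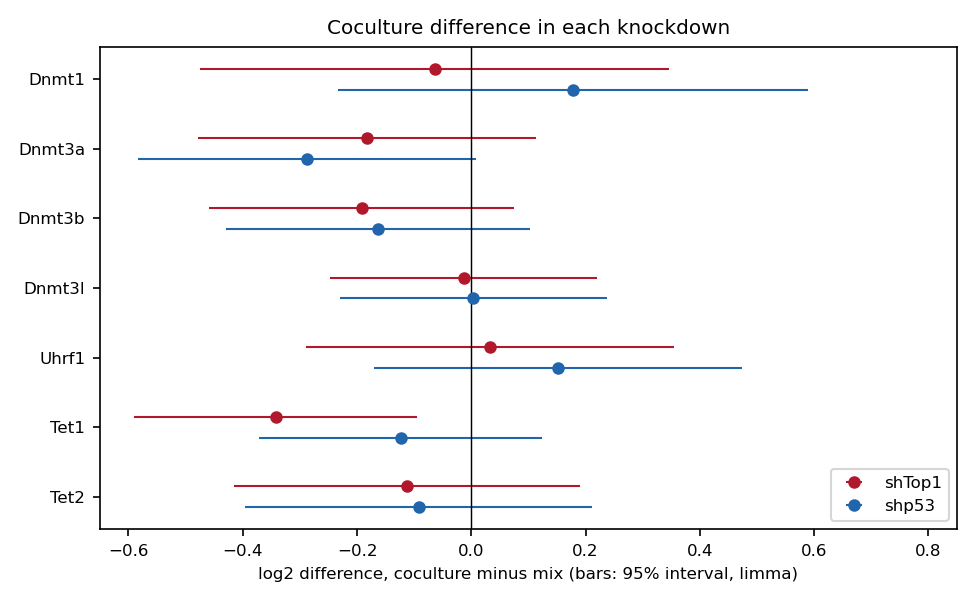
Log2 difference between coculture and mix (horizontal axis) for the 7 tested genes in each knockdown, with 95% intervals from limma on 2 arrays a group. The intervals of the 2 knockdowns overlap for every gene, and that of Tet1 with shTop1, centred on -0.34, lies below 0.

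The coculture effects of the 2 knockdowns were also set against each other. The interaction, shTop1 minus shp53, ranged over the 7 members from -0.24 ± 0.24 (SE) for Dnmt1 to 0.11 ± 0.17 (SE) for Dnmt3a, and for Tet1 (1455425_at) it was -0.22 with a 95% interval of -0.57 to 0.13. That of Tet1 turned to 0.020 with its 4 probe sets averaged, and was 0.15 on 1429448_s_at, and that of Dnmt3a turned to -0.023 with its probe sets averaged. No member was called, nor was any of the 14267 genes (0%), and 0 of 7 had an unadjusted p under 0.05, against 4.30% of all genes. Of the 19 probe sets likewise 0 did, against 5.11% of all. These intervals also hold differences larger than the coculture effects themselves.

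Between the knockdowns, averaged over coculture and mix, the members differed by -0.044 (Tet2) to 0.079 (Dnmt3l), with the smallest limma adjusted p at 0.999. Over all genes 0 of 14267 were called (0%), and 0 of 7 members had an unadjusted p under 0.05, against 4.70% of all genes. Of the single probe sets, the dimmest of Dnmt3a, 1460324_at, had the largest difference. It had 180 and 179 in the shTop1 cocultures and 200 and 183 in the shTop1 mixes, against 220 and 263 in the shp53 cocultures and 213 and 251 in the shp53 mixes. The 4 shTop1 arrays all lay below the 4 shp53 arrays, by a log2 difference of -0.32 ± 0.10 (SE, limma adjusted p = 0.894). The share of all probe sets separated between the knockdowns was not counted. This probe set was the 1 of 19 with an unadjusted p under 0.05, against 5.05% of all, while the brightest Dnmt3a probe set had 0.022.

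The genes around the methylation system were described from 9 lists, 119 names in all, and none of their tested genes was called in the mean comparison. The methyl-CpG readers, 9 tested of 11, had a median log2 difference of 0.013. Uhrf2, the relative of Uhrf1 that binds methylated and hydroxymethylated DNA, had 1010 and 964 in the shTop1 cocultures, against 817 and 776 in the shTop1 mixes, and 978 and 842 in the shp53 cocultures, against 800 and 646 in the shp53 mixes. All its cocultures lay above all mixes, as in 5.75% of all genes, with a log2 difference of 0.32 ± 0.10 (SE, limma adjusted p = 0.363). Zbtb33, another reader, had all cocultures below all mixes, as in 3.35% of all genes, with a log2 difference of -0.13 ± 0.08 (SE). Zbtb4, a zinc finger reader, had 0.28 ± 0.13 (SE).

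Base excision and demethylation helpers, 12 tested of 13, had a median of 0.052, with the DNA ligase gene Lig3 at -0.25 and the stress-induced Gadd45b at 0.27. The methyl donor and folate cycle, 10 tested of 14, had a median of 0.014, with the methionine synthase gene Mtr at -0.26 and the methionine adenosyltransferase regulatory subunit gene Mat2b at -0.22. The list of 2-oxoglutarate enzymes, ascorbate transporters and Ogt, all 12 tested, had 0.054. Its smallest p values belonged to the ascorbate transporter gene Slc23a1 (-0.45) and to the isocitrate dehydrogenase gene Idh2 (0.22). Tet enzymes use 2-oxoglutarate, with ascorbate as a helper.

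Maintenance and heterochromatin partners, 17 tested of 18, had a median of -0.031, with 12 of 17 below 0. The imprint-guarding zinc finger gene Zfp57 had -0.21 and the deacetylase gene Hdac1 -0.14. The germline genes repressed by promoter methylation, which can serve as a readout of the system, had a median of 0.012 over 12 tested of 14, with 6 above and 6 below 0. Hormad1, a meiotic chromosome gene, had 814 and 288 in the shTop1 cocultures, against 869 and 699 in the shTop1 mixes, and 540 and 320 in the shp53 cocultures, against 887 and 756 in the shp53 mixes. Its cocultures of the same group differed widely from each other, and the log2 difference was -0.81 ± 0.34 (SE, limma adjusted p = 0.437). Taf7l, a germ cell transcription factor subunit gene, had 0.16 ± 0.07 (SE).

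The regulators of methylation genes in naive cells, all 8 tested, had a median of -0.054, with 3 above 0 and 5 below. Those with the smallest p, the naive marker Zfp42 and Klf4, had -0.28 and -0.15, and the highest value was 0.20. With shTop1 their median was 0.023, with 5 above 0 and 3 below. With shp53 it was -0.11, with 3 above 0 and 5 below. The primed epiblast genes, all 9 tested, had a median of -0.32 with 9 of 9 below 0, and 6 had an unadjusted p under 0.05 and lay below 0, against 4.63% of all genes. Fgf5, a growth factor gene of the primed epiblast, had 22.6 and 26.1 in the shTop1 cocultures, against 119 and 97.4 in the shTop1 mixes, and 66.7 and 76.3 in the shp53 cocultures, against 119 and 80.7 in the shp53 mixes (limma adjusted p = 0.279). The POU factor gene Pou3f1 had a log2 difference of -0.47 ± 0.13 (SE). These lists were drawn up with the behaviour of primed genes in these arrays already known, so their count is no independent evidence, and Dnmt3a and Dnmt3b at -0.24 and -0.18 stand beside it as values only.

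**Figure D5:**
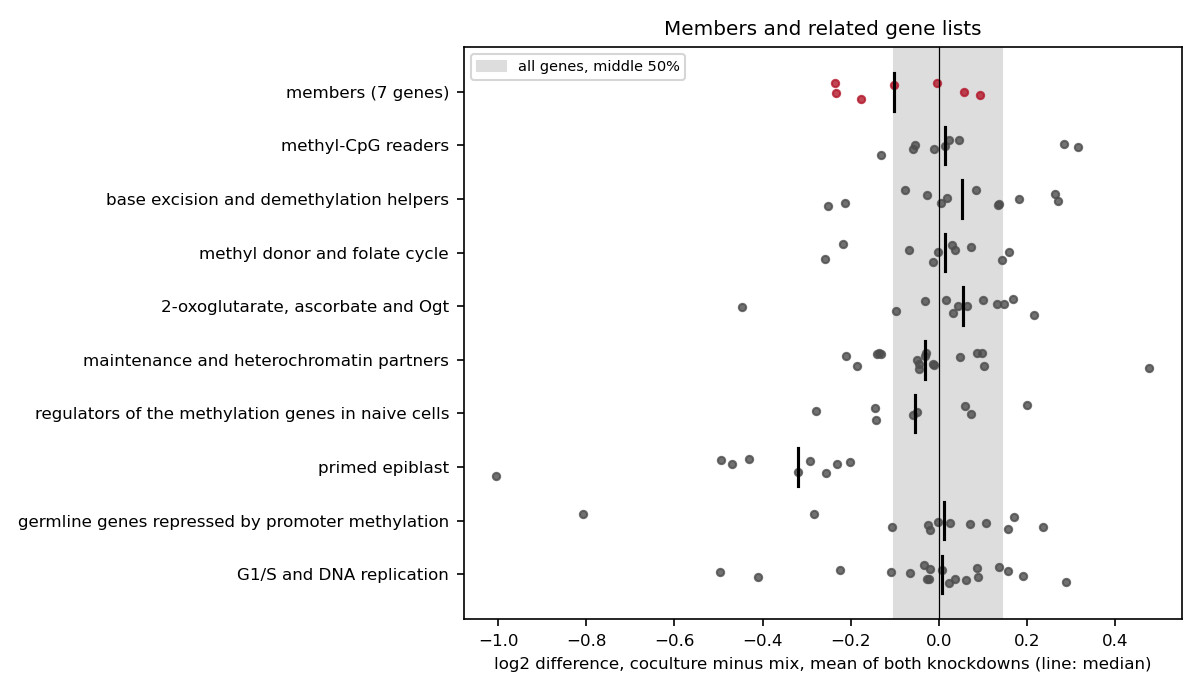
Log2 difference between coculture and mix, averaged over both knockdowns (horizontal axis), for the 7 members and the tested genes of 9 related lists; points are genes, short lines medians, and the grey band the middle 50% of all 14267 genes (-0.10 to 0.14). The primed epiblast genes lie lowest, with a median of -0.32, and the members have a median of -0.10.

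Markers of other cell types were checked beside these differences. The summed signal of 8 fibroblast markers, 4 of them above the filter, was 649 to 727 in the cocultures and 478 to 609 in the mixes, and Col3a1, Dcn, Lum and Postn lay below it on the mean log2 scale that the filter uses. That of 6 primitive endoderm markers, all above the filter, was 9815 to 10970 in the cocultures and 9586 to 9791 in the mixes, and that of 4 trophectoderm markers, 3 above the filter, was 6555 to 7099 in the cocultures and 5885 to 6350 in the mixes. Most of the trophectoderm sum came from the keratin genes Krt8 and Krt18, with mean signals of 4332 and 2027, against 50.4 for Cdx2 and 18.2 for Elf5. It therefore says little of Cdx2 and Elf5. Among the primitive endoderm markers Dab2 had the highest mean signal (5231), and among the fibroblast markers Pdgfrb (255.6) and Thy1 (191.5) did. The fibroblast, primitive endoderm and trophectoderm sums did not overlap between conditions. In this they move with the brightest probe sets of Dnmt3a, Dnmt3b and Tet1 after quantile normalization. With median centring those probe sets overlapped between conditions, and Tet1 1429448_s_at had the opposite order. The part of the markers in these values was not tested. The sums of the neural and mesoderm markers overlapped, at 280 to 384 and 160 to 279 in the cocultures and 305 to 458 and 164.5 to 229 in the mixes.

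The genes whose profile over the 8 arrays was most like that of the members with the smallest p were found by the root mean square difference of mean-centred log2 values. For Tet1 (1455425_at, SD 0.147 over the arrays) they were Nol10 (0.0376), Gtf3c2 (0.0516) and Ube2v2 (0.0528). For Dnmt3a (SD 0.151) they were Ppp4r3a (0.0345), Slc7a3 (0.0385) and Akap8 (0.0444). All 6 lay below 0 in the mean coculture comparison, from -0.28 (Slc7a3) to -0.17 (Ube2v2), as the choice of like profiles leads to.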

How the data were processed

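The authors deposited a linear signal intensity for every probe set, and the sources used here do not name the software. Without the highest and lowest 2%, the deposited intensities averaged 500.003 or 500.004 on every array, which shows a scaling to that trimmed mean. Precision is limited by the number of arrays (8).

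The platform annotation gives 34958 of the 45101 probe sets 1 gene symbol and 932 several, and does not list 9211. Symbols were updated through gene identifiers. After quantile normalization, values were converted to log2(value + 16), which understates changes of low genes. The brightest probe set by mean stood for each gene. Genes under the 30th percentile of probe set means (a signal of 22.1) were dropped, leaving 14267. In a separate fit every probe set past the filter stood by itself (31571).

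Group means over all 8 arrays were fitted with limma 3.58.1 (lmFit and eBayes, R 4.3.3), leaving 4 residual degrees of freedom. Tests were two-sided, and Benjamini-Hochberg adjustment ran over all genes or all probe sets (threshold 0.05). The fit was tried on simulated data with planted changes larger than any of the members. Recovery of differences as small as theirs was not tested. The alternatives were a replicate block, the authors' scaling alone, median centring, no filter and a filter at the 50th percentile, pseudocounts of 1 and 64, averaging a gene's probe sets, a fit to only the groups compared, trended and robust variances, and leaving out each array.

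Named were the 9 members with their probe sets, the 2 genes of each list with the smallest p in the mean coculture comparison, and for 2 members the 3 most alike genes. Zbtb33 was named besides, for a separation opposite to that of Uhrf2. The members and lists were chosen with earlier results of these data known. Comparisons of probe sets of the same gene were chosen after their values were seen. Promoter windows came from RefSeq's GRCm38.p6 table, which matched all 9 genes.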

Additional observations from a re-analysis of the deposited data

How the results depend on the processing

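No member was called in any of the 5 comparisons under any alternative, with each gene represented by 1 probe set or every probe set by itself. Over all genes limma called 0 in each comparison, except that trended and robust variances called 31 in the mean coculture comparison, 3 with shTop1 and 1 with shp53. In the mean coculture comparison Tet1 ranged from -0.27 to -0.19, Dnmt3a from -0.30 to -0.17 and Dnmt3b from -0.23 to -0.13 leaving out 1 array (a lone array left in a group is assumed to vary like the other groups). Averaging a gene's probe sets gave -0.082 for Tet1 and -0.098 for Dnmt3a, and median centring gave -0.097 for Dnmt3b. Median centring moved the median of all genes to 0.068, against 0.022, and that of the members to -0.040.

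Same-numbered arrays shared little of their deviations, with correlations from -0.0067 to 0.051 over the 6 pairs of groups. The labels do not say whether the numbers mark shared cultures. With the replicate block limma called 0 genes in each comparison, as without it, so these counts do not bear on pairing.

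The differences below changed sign, and the cause was not tested. They include the interactions of Tet1 (-0.22) and Dnmt3a (0.11). With the authors' scaling alone Dnmt3l had 0.021 in the mean comparison, 0.040 with shTop1 and 0.038 in the interaction, and Dnmt3b had 0.047 in the interaction and 0.00628 between knockdowns. With median centring these were 0.078, 0.099, 0.042, 0.052 and 0.071. It also gave 0.041 for Dnmt1 and 0.030 for Tet2 between knockdowns, and in the mean comparison 0.0045 for Dnmt1 1447877_x_at and 0.0077 for Dnmt3a 1460324_at. With a gene's probe sets averaged, Uhrf1 had -0.013 with shTop1 and -0.0087 between knockdowns, Dnmt3a -0.023 in the interaction and -0.087 between knockdowns, and Tet1 0.020 in the interaction.

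Leaving out 1 array, the ranges that crossed 0 were as follows. In the mean comparison they were -0.045 to 0.16 for Dnmt1, -0.035 to 0.025 for Dnmt3l, -0.012 to 0.081 for Dnmt1 1422946_a_at, -0.14 to 0.0335 for Dnmt1 1447877_x_at, -0.0395 to 0.12 for Dnmt3a 1423065_at, -0.076 to 0.046 for Dnmt3a 1460324_at and -0.035 to 0.10 for Uhrf1 1415811_at. With shTop1 they were -0.27 to 0.14 for Dnmt1, -0.033 to 0.0061 for Dnmt3l and -0.14 to 0.20 for Uhrf1, and with shp53 -0.0565 to 0.063 for Dnmt3l. In the interaction they were -0.030 to 0.24 for Dnmt3a, -0.13 to 0.070 for Dnmt3b, -0.0765 to 0.043 for Dnmt3l, -0.29 to 0.051 for Uhrf1 and -0.13 to 0.0895 for Tet2. Between knockdowns they were -0.14 to 0.060 for Dnmt1, -0.046 to 0.089 for Dnmt3a, -0.0565 to 0.042 for Dnmt3b, -0.073 to 0.098 for Uhrf1, -0.0079 to 0.069 for Tet1 and -0.099 to 0.011 for Tet2.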
